A study of Mus musculus with 22 samples.

Results

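Stc1, the gene of the secreted glycoprotein hormone stanniocalcin 1, and 9 genes known from the cell's response to low oxygen (Stc2, Vegfa, Adm, Egln3, Slc2a1, Bnip3, Ndrg1, Ankrd37 and Pdk1) were followed in the livers of Tcf7l2 knockout mice. Stc1 was chosen by its newborn values, as a gene with one of the largest rises in knockout over wild-type liver, and the other 9 were listed by name to ask whether they went with it. Every probe carrying 1 of these 10 gene names was taken, which gave 16 probes of 41174 and 10 genes of 28034 on the array. All 10 genes passed the filter on dim probes in both the newborn and the adult fit. Tcf7l2 encodes TCF4, a DNA-binding partner of beta-catenin through which Wnt signals reach their target genes.

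Liver RNA was hybridised on 22 arrays, 1 labelled liver sample to each, against a common mouse reference RNA on 2-colour Agilent arrays, and each value below is the log2 ratio of liver over that reference for 1 probe. The newborn groups were 4 Tcf7l2-/- knockouts and 4 Tcf7l2+/+ wild types on C57BL/6, all given 50 ul of 10% glucose under the skin and sampled 5 h after birth. The adult knockouts carried Tcf7l2loxp/loxp with SA-CreERT2, a tamoxifen-activated Cre recombinase known as one placed in the serum albumin gene, which hepatocytes express. The adult controls carried Tcf7l2loxp/loxp alone, so both adult genotypes carried the loxP alleles, and both received tamoxifen at 3 weeks of age. After 1 to 2 months 4 knockouts and 4 controls were fasted for 24 h, and 3 knockouts and 3 controls were fed. The newborn knockouts lack the gene in every cell, whereas the adult deletion needs the Cre.

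Cells sense oxygen through the hypoxia-inducible factors HIF-1 and HIF-2. Prolyl hydroxylases mark the HIF alpha subunits for destruction by the Vhl ubiquitin ligase while oxygen is present. When oxygen is low the subunits persist, pair with Arnt and bind DNA at a short core sequence near genes of glucose uptake, glycolysis, vessel growth and mitochondrial removal. In liver, oxygen falls from the portal to the central side of each lobule.

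Stc1 was read by 3 probes, all on the plus strand of chromosome 14 in build mm9, and its newborn rise came from only 1 of them. That probe, A_51_P233334, covers chr14:69649656-69650303, a stretch of 648 bases that is longer than the 60-base probe, as for a probe that crosses an intron. Per the files it begins at base 315 of the transcript, whereas A_52_P189970 begins at base 1774 and A_52_P315733 at base 3187, at chr14:69657490-69657549 and chr14:69658903-69658962. The sequence of the probe that carried the signal is shown because every Stc1 result rests on it, and it holds no capitals because no single base is singled out.
A_51_P233334: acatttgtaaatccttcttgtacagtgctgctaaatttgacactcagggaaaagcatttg

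The core that HIF binds, ACGTG, was looked for in RefSeq promoter windows of GRCm38.p6, which run from 250 bases before to 50 after a gene's start. Windows matched 8 of the 10 genes, 10 windows in all, and those of Stc1 and Ndrg1 were not analysed here. ACGTG occurred on either strand in 5 of the 10 windows, against 19.6% of all 32851 windows. The variant GCGTG occurred in 7 of the 10, against 32.4% of all windows, and CTTTGAT, a core bound by TCF proteins, occurred in 0 of the 10, against 3.73%. The 9 genes were listed as known hypoxia genes, so the matches are a description. The stretches around the ACGTG matches of 5 genes are shown, with up to 12 bases to each side, read along the gene's strand, with the match in capitals (CACGT where it lies on the opposite strand) and the distance of the first base before the start.
Bnip3 (chr7:138909598-138909626, minus strand, from 120 bases before): gcgcacgcgccgCACGTGccacacgctcc
Slc2a1 (chr4:119108697-119108725, plus strand, from 48 bases before): gtcccgccccggACGTGctccccaggccc
Egln3 (chr12:54204087-54204115, minus strand, from 241 bases before): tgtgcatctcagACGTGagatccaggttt
Ankrd37 (chr8:45999851-45999868, minus strand, from 18 bases before): cagtgtttgggtACGTGa
Vegfa (chr17:46025358-46025386, minus strand, from 223 bases before the second of its 2 starts): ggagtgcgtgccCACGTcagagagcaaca
In Bnip3 the 2 matches lie on both strands of the same 6 bases, and Ankrd37 held another match near the upstream end of its window.

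Probes of the other 9 genes lie elsewhere in mm9. Those used for the gene values of the secreted proteins are at chr11:31260136-31260195 (Stc2), chr17:46155512-46155571 (Vegfa, A_51_P482552) and chr7:117773088-117773147 (Adm). Those of the glucose genes are at chr4:118809864-118809923 (Slc2a1) and chr2:71739688-71739747 (Pdk1, A_51_P406429). The rest are at chr12:55280953-55281012 (Egln3), chr7:146083077-146083136 (Bnip3), chr15:66761057-66761116 (Ndrg1) and chr8:47082404-47082463 (Ankrd37).

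The share of liver spots well above background was 50.2% to 64.4% on newborn arrays, 50.2% to 62.0% on fasted arrays and 22.8% to 31.2% on fed arrays, so dim genes were measured least well in fed livers. Newborn knockouts lay on one slide and newborn wild types on another, so slide and genotype cannot be told apart there. The fasted knockouts and controls shared 2 slides evenly. The fed ones shared 2 others unevenly, with fed control 1 and fed knockouts 1 and 2 together and the rest together. Slide and genotype are therefore partly mixed in fed livers. Every fasted-to-fed comparison sets slides against each other. The reference RNA, which is the same on every array, had other signals on fasted than on fed arrays in 55.4% of genes in knockouts and 59.1% in controls by limma, while in the newborn comparison this share was 14% (2403 genes). Tcf7l2 probe A_52_P566741 averaged -1.66 ± 0.13 in newborn knockouts and -0.78 ± 0.40 in newborn wild types (SD, n = 4 each), with all 4 knockouts below all wild types and a change of -0.87 ± 0.19 (SE, limma adjusted p = 0.0612 with all probes fitted), while A_52_P146043 changed by 0.08 ± 0.12. In adults the change of A_52_P566741 was 0.35 ± 0.17 fasted and 0.21 ± 0.20 fed (knockout minus control, SE), so it showed no loss there. Whether the probes lie in the deleted part is not given in the sources used here, so the adult genotypes rest on their labels. Tested hepatocyte markers (Alb, Ttr, Apoa1, Trf, Fgb and Apob) were well above background on every array. Replicates within a group are biological per the labels, which leave unsaid whether animals were pooled.

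In newborn livers Stc1 stood far above its wild-type level in every knockout. Probe A_51_P233334 gave 4.42, 4.22, 4.30 and 4.55 in the 4 newborn knockouts, against 1.36, 1.28, 2.03 and 2.28 in the 4 newborn wild types. The groups did not overlap, and the gap between the lowest knockout and the highest wild type was wider than the spread within either group. Newborn knockouts averaged 4.37 ± 0.14 and wild types 1.74 ± 0.49 (SD, n = 4 each), a log2 difference of 2.63 ± 0.22 (SE), or 6.2-fold. This contrast chose the gene, so no test is given for it. By size it was the second largest rise among the 17175 genes with a test in newborns, Stc1 included, after Olfr176 at 2.90 and before Cxcl1 at 2.14 and Mroh4 at 2.01.

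The liver channel alone showed the same order. Its quantile-normalised log2 signal for A_51_P233334 was 10.48, 10.12, 10.17 and 10.57 in newborn knockouts and 8.11, 7.62, 8.22 and 8.37 in newborn wild types. The liver channel alone thus differed by 2.25 ± 0.18 and the reference channel of the same spots by -0.15 ± 0.05 (SE). With local backgrounds that Feature Extraction marked as outliers kept in, the ratio's difference was 2.29 with a wider SE of 0.67. In whole liver, more cells of a type that expresses a gene and more RNA of it per cell cannot be told apart.

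The other 2 Stc1 probes, nearer the end of the transcript, did not show the rise. The liver channel of A_52_P189970 and A_52_P315733 was well above background on none of the 22 arrays. A_52_P189970 averaged -0.91 ± 0.32 in newborn knockouts and -1.04 ± 0.26 in wild types, and A_52_P315733 averaged -0.26 ± 0.12 in newborn knockouts and -0.25 ± 0.11 in wild types (SD, n = 4 each). With liver signals that dim in both genotypes no fold can be given for either. The reference channel of A_52_P189970 was well above background on all 8 newborn arrays, at 7.66 to 7.91 in knockouts (log2). Its liver signal in newborn knockouts was 6.42 to 6.63, beside 10.12 to 10.57 for A_51_P233334. Why these probes differ was not tested. A_51_P233334 was well above background on all 8 newborn arrays.

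**Figure D1:**
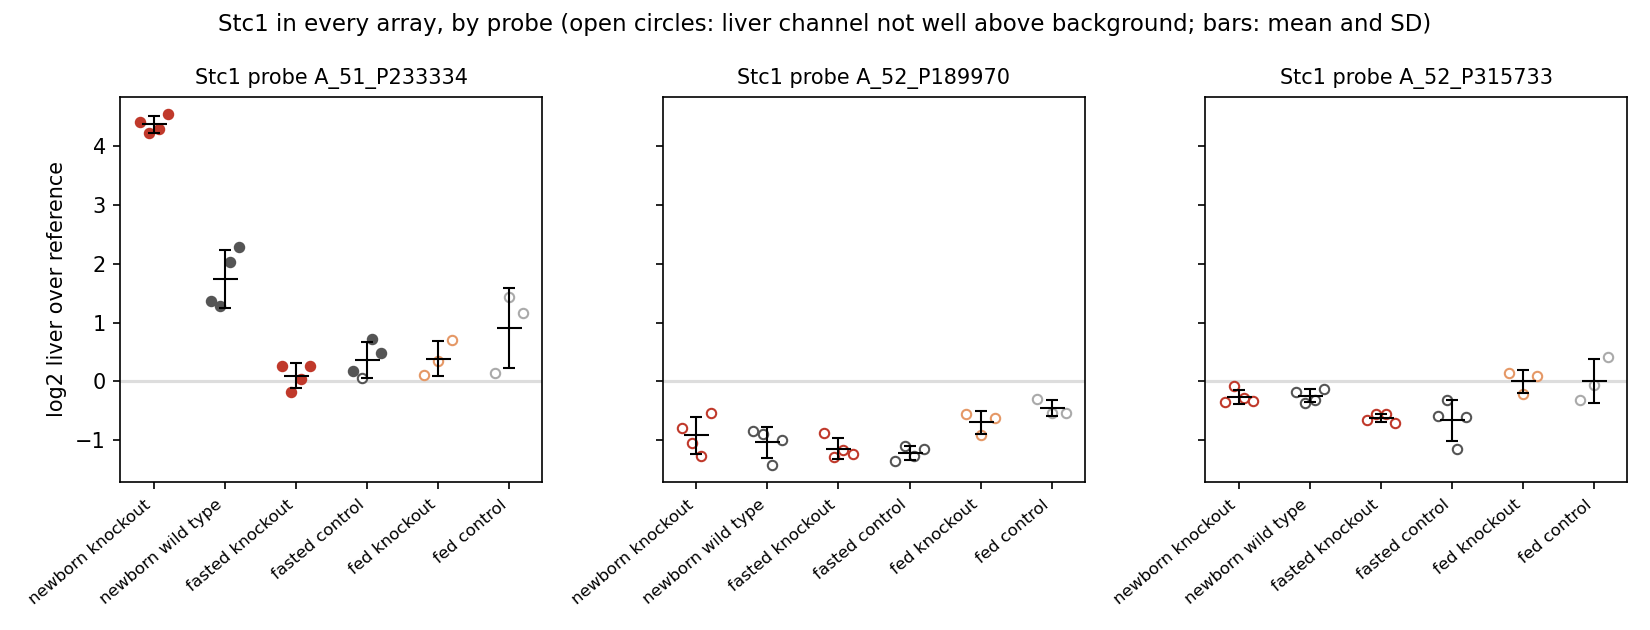
Log2 liver over reference for the 3 Stc1 probes (one panel each) on every array of the 6 groups; filled circles are arrays whose liver channel was well above background, open circles those where it was not, and bars are the mean and SD. The 4 newborn knockouts lie between 4.22 and 4.55 for A_51_P233334, above all other arrays, while both other probes show open circles only.

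Across all groups, Stc1 by A_51_P233334 was highest in newborn knockouts (4.37) and then newborn wild types (1.74). Fed knockouts averaged 0.38 ± 0.30 and fed controls 0.91 ± 0.68 (SD, n = 3 each), and fasted knockouts 0.10 ± 0.21 and fasted controls 0.36 ± 0.31 (SD, n = 4 each). From high to low the adult order was fed controls, fed knockouts, fasted controls and fasted knockouts. Only the newborn knockouts stood clear of their neighbour in this order. The values of newborn wild types (1.28 to 2.28) and fed controls (0.14 to 1.44) overlapped, as did each later pair of neighbours. On fed arrays the probe was well above background on none, and on fasted arrays on 4 of 4 knockouts and 3 of 4 controls, so the adult order is among dim signals.

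The Stc1 estimates in adult knockouts lay below 0. Fasted knockouts gave 0.27, -0.18, 0.04 and 0.27, against 0.17, 0.05, 0.72 and 0.49 in fasted controls, a change of -0.26 ± 0.25 (SE, limma adjusted p = 0.784). Fed knockouts gave 0.11, 0.34 and 0.70, against 0.14, 1.44 and 1.16 in fed controls, a change of -0.53 ± 0.29 (SE, adjusted p = 0.814). The ranges overlapped in both. Within the fed slides the change was 0.08 and -0.60, and within the fasted slides -0.06 and -0.45. The 95% interval of the fasted change was -0.80 to 0.29. No fold can be given for the fed change, where neither group was well above background on any array. Whether the newborn and adult knockout changes differ was not tested in 1 model, since the 2 ages lay on separate slides.

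None of the 9 hypoxia genes passed the test in newborn knockouts, where Stc1 was high. By limma 0 of 9 passed an adjusted p of 0.05, and 1 of 9 had an unadjusted p under 0.05. Over all genes tested, 1.5% passed and 13.4% had an unadjusted p under 0.05. The changes ran from -0.24 to 0.72 with a median of 0.02, next to -0.01 over all genes. No member of the 9 had separate ranges in knockouts and wild types, which 9.54% of all genes had.

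Stc2, the gene of the other stanniocalcin, came nearest. It read -1.46, -1.19, -1.94 and -1.59 in newborn knockouts and -1.67, -2.44, -2.35 and -2.63 in newborn wild types. Wild type 1 overlapped the knockouts, and the other wild types lay below all of them. The difference was 0.72 ± 0.22 (SE), or 1.65-fold, with a 95% interval of 0.22 to 1.23 and a limma adjusted p of 0.161. Without wild type 1 it was 0.92 ± 0.18 (adjusted p = 0.0357), and it passed also with array weights (0.78, adjusted p = 0.0382) and with scale normalisation between arrays (0.90, adjusted p = 0.0457). Over all settings tried its adjusted p ran from 0.0357 to 1.

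The secreted vessel factors did not pass in newborns. Vegfa, which encodes the main growth factor of endothelium, read -0.83, -0.73, -0.54 and -0.54 in knockouts and -0.73, -0.34, -0.18 and -0.43 in wild types, a change of -0.24 ± 0.14 (SE, limma adjusted p = 0.531). Its other 3 probes changed by -0.27 (A_52_P249424), -0.05 (A_52_P229471) and 0.00 (A_52_P638895). Adm, which encodes the vessel-widening peptide adrenomedullin, read -2.46, -3.32, -2.91 and -2.52 in knockouts and -2.41, -3.43, -3.25 and -2.97 in wild types. Its change was 0.21 ± 0.25 (SE, adjusted p = 0.82), with the groups interleaved.

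Glucose handling genes did not pass either. Slc2a1, which encodes the glucose transporter GLUT1, read -2.64, -2.26, -2.14 and -2.28 in newborn knockouts and -3.06, -1.61, -2.32 and -1.87 in wild types. The wild types were spread more widely than the knockouts and enclosed them, with a change of -0.11 ± 0.28 (SE, limma adjusted p = 0.93). Pdk1, a kinase that shuts pyruvate out of the mitochondrial citrate cycle, read -1.01, -1.42, -0.84 and -1.02 in knockouts and -1.14, -1.25, -0.71 and -1.01 in wild types, a change of -0.05 ± 0.16 (SE, adjusted p = 0.954). Its second probe changed by -0.13 ± 0.19.

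Among the others, Bnip3 (removal of mitochondria) changed by -0.02 ± 0.27, Ndrg1 (a stress-responsive gene widely used as a hypoxia marker) by 0.02 ± 0.23 and Egln3 (the prolyl hydroxylase PHD3, itself induced by HIF) by 0.02 ± 0.16 (SE). Ankrd37, an ankyrin-repeat gene known as a HIF-1 target, changed by 0.30 ± 0.25. Their limma adjusted p-values were 0.987, 0.99, 0.985 and 0.703. The 95% intervals of these 4 genes reach at most 0.86, so small changes in either direction lie within them. In Bnip3 the third array of either genotype stood highest, at 0.10 in knockout 3 and 0.39 in wild type 3.

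**Figure D2:**
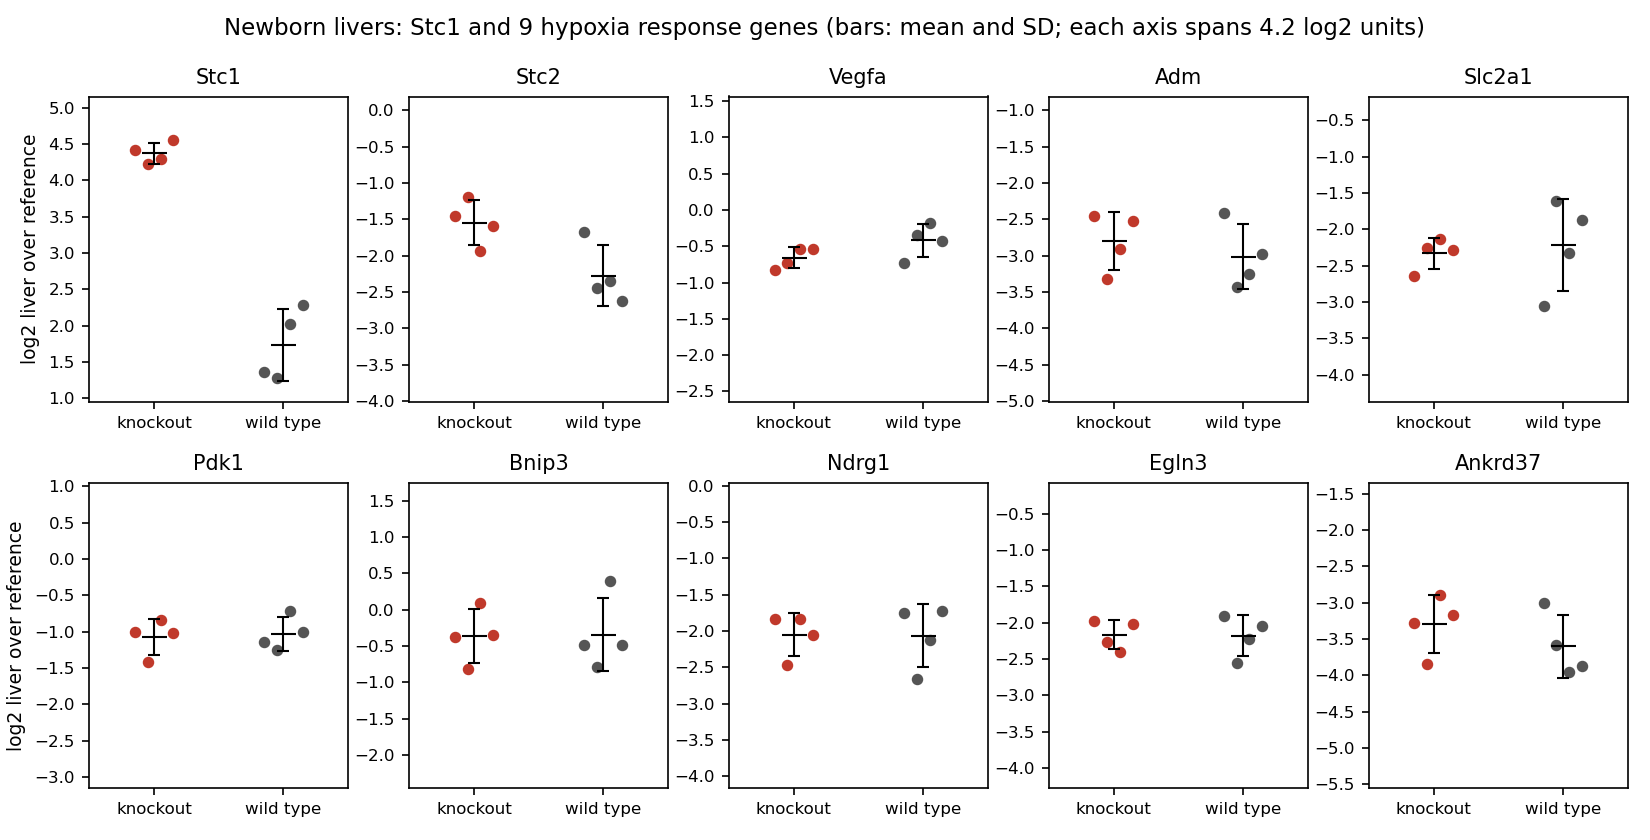
Log2 liver over reference of the 10 genes on the 8 newborn arrays, 1 panel a gene with axes of equal span; circles are arrays and bars the mean and SD. Knockout and wild-type circles are apart for Stc1 (4.22 to 4.55 against 1.28 to 2.28) and overlap in the other 9 panels.

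Markers of other liver cells were also set beside the newborn contrast. Of 9 Kupffer cell genes, all tested, 2 were lower in newborn knockouts, where 59 of 17175 genes passed as lower and 1.5% in either direction. They were Marco, lower by 1.34 ± 0.17 (SE, limma adjusted p = 0.00796) and Csf1r, lower by 0.70 ± 0.14 (adjusted p = 0.0486). Marco stayed past the threshold under the 4 other scalings tried, and Csf1r did so under scale normalisation alone. The number of Kupffer genes that passed as lower was 6 with scale normalisation, 4 by the liver channel alone and 1 with median centring or processed signals. Of the 17175 genes 321, 159, 17 and 183 passed as lower under these 4 settings. The mean log2 ratio of the Kupffer list was 3.08 to 3.64 in knockouts and 3.85 to 4.07 in wild types, without overlap, and all 9 were well above background on every newborn array. None passed among 8 endothelial, 7 stellate, 9 erythroid, 8 neutrophil, 3 pancreas or fat and 6 hepatocyte genes, with smallest adjusted p of 0.0863 (Stab2). Of the 8 endothelial genes, 7 had changes below 0, with a median of -0.47, and 4 had an unadjusted p under 0.05, next to 13.4% of all genes. Most other lists leaned lower too. Changes above 0 were seen in 0 of 9 Kupffer, 0 of 7 stellate, 0 of 6 hepatocyte and 1 of 9 erythroid genes. They were seen in 3 of 8 neutrophil and 2 of 3 pancreas or fat genes. Of the Kupffer genes 7 had an unadjusted p under 0.05, as had 1 gene each of the stellate, hepatocyte and erythroid lists. As lower, 3 endothelial genes passed with scale normalisation, 2 with processed signals and 1 by the liver channel alone. Of the stellate and erythroid lists 1 gene each passed as lower with scale normalisation and with processed signals, and 1 hepatocyte gene did so with scale normalisation. Endothelial means were 3.39 to 4.01 in knockouts and 3.76 to 4.33 in wild types. Their part in the Stc1 rise was not tested.

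In adult livers the knockout moved none of the 10 genes past the threshold in either feeding state. In fasted livers 0 of 10 passed by limma and 2 of 10 had an unadjusted p under 0.05, next to 0.477% and 11.1% of all genes. Ranges were separate for 0 of 10, next to 6.46% of all genes. In fed livers 0 of 10 passed and 3 of 10 had an unadjusted p under 0.05, next to 0.215% and 7.15%. The median change was -0.07 fasted and -0.33 fed, with 0.01 and 0.02 over all genes.

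Egln3 had the smallest adjusted p in fasted livers. Its values were -2.45, -2.62, -2.64 and -2.05 in fasted knockouts, against -1.96, -1.80, -1.80 and -2.07 in fasted controls. Knockout 4 lay among the controls and the other knockouts below them. The change was -0.53 ± 0.14 (SE, limma adjusted p = 0.14), -0.65 within the first fasted slide and -0.41 within the second, and without knockout 4 it was -0.66 ± 0.12 (adjusted p = 0.026). In fed livers Egln3 read -1.99, -1.78 and -1.75 in knockouts and -1.34, -1.55 and -1.68 in controls, a change of -0.32 ± 0.16 (SE, adjusted p = 0.767) with separate ranges. Within the fed slides it changed by -0.55 and -0.13.

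Adm pointed the other way in fasted livers, though not under every setting. Its values were -3.01, -3.05, -2.82 and -2.85 in fasted knockouts, against -3.66, -3.00, -3.56 and -3.19 in fasted controls. Control 2 lay within the knockouts' range and the other controls lay below it. The change was 0.42 ± 0.13 (SE, limma adjusted p = 0.244), and 0.30 and 0.54 within the 2 slides. Under the alternative settings it ran from -0.40 to 0.54, so its direction depended on the processing. In fed livers it was well above background on no array, and its change was -0.04 ± 0.15.

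In fed livers Ankrd37 and Pdk1 had the smallest adjusted p-values. Ankrd37 read -4.28, -4.25 and -3.85 in fed knockouts and -3.71, -2.58 and -3.47 in fed controls, a change of -0.87 ± 0.26 (SE, limma adjusted p = 0.346). The groups did not overlap, but only control 2 was well above background, so no exact fold can be given. Without control 2 neither group was well above background on any array, and the change was -0.54. Pdk1 read -0.46, -0.56 and -0.13 in fed knockouts and -0.20, 0.16 and 0.26 in fed controls, a change of -0.46 ± 0.14 (SE, adjusted p = 0.40), with knockout 3 within the controls' range. Within the 2 fed slides Ankrd37 changed by -0.56 and -0.83, and Pdk1 by -0.31 and -0.34, and its second probe by -0.09 ± 0.15. Ranges were separate in fed livers for 4 of the 10 genes (Egln3, Slc2a1, Bnip3 and Ankrd37), all lower in knockouts, next to 11.2% of all genes in either direction and 4.19% lower. Beside them, all 6 hepatocyte and all 9 Kupffer cell markers had fed changes above 0, with medians of 0.52 and 0.56. By limma 0 of either list passed, next to 0.215% of all genes. An unadjusted p under 0.05 was found for 4 of 6 hepatocyte and 6 of 9 Kupffer markers, next to 7.15% of all genes. The hepatocyte means were 7.07 to 7.34 in fed knockouts and 6.40 to 6.98 in fed controls, and the Kupffer means 3.23 to 3.86 in fed knockouts and 2.85 to 3.26 in fed controls. Their part in the fed differences was not tested.

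The rest stayed closer to 0. Fed knockouts differed from controls by -0.43 ± 0.23 for Slc2a1 and -0.34 ± 0.16 for Bnip3 (SE, limma adjusted p = 0.805 and 0.695). In fasted livers the corresponding changes were 0.08 ± 0.20 and -0.13 ± 0.13. Ndrg1 changed by 0.33 ± 0.24 fasted and -0.05 ± 0.27 fed, Vegfa by -0.13 ± 0.12 and 0.00 ± 0.14, and Stc2 by 0.32 ± 0.31 and 0.24 ± 0.36. The liver channel of Stc2 was well above background on no fed array, so no fold can be given for its fed change. Within the fed slides Ndrg1 changed by -0.65 and 0.29, Slc2a1 by -0.53 and -0.44, and Bnip3 by -0.26 in both. Among fasted knockouts the Stc2 ratio stood highest in knockout 1 at -1.20, beside -2.70, -2.70 and -2.54 in the other 3. Its liver signal was lowest in knockout 1, at 6.32 beside 6.65 to 6.86 (log2). The reference signal of that spot was 9.32, beside 10.96 to 11.12 in the other 3.

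**Figure D3:**
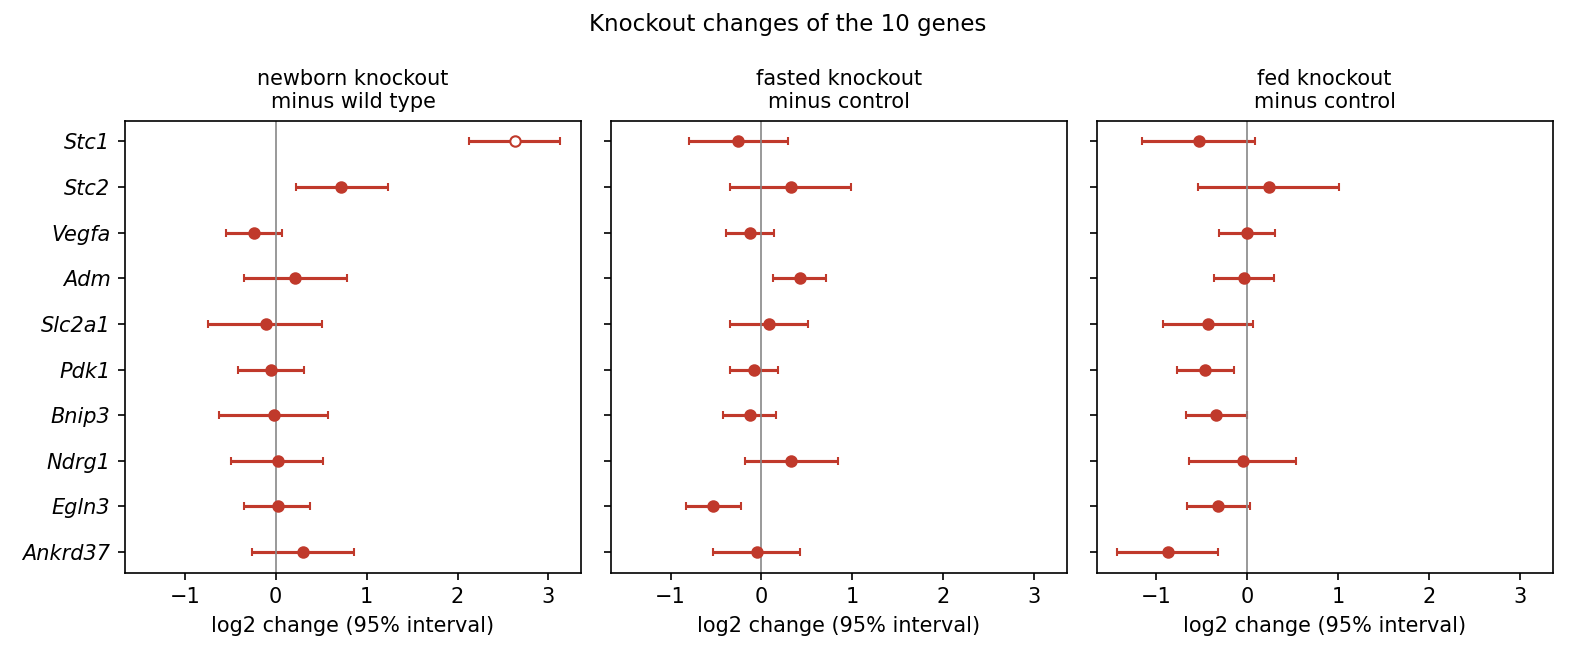
Log2 change, knockout minus wild type or control, of the 10 genes in newborn, fasted and fed livers; points are limma estimates, bars their 95% intervals, and the open point is the newborn change on which Stc1 was chosen. Apart from that point all estimates lie between -0.87 (Ankrd37, fed) and 0.72 (Stc2, newborn).

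The difference between the knockout changes in fasted and fed livers was also tested. By limma 0 of 10 genes passed, and over all 17188 genes 0 passed as well, with unadjusted p under 0.05 for 2 of 10 genes and 6.6% of all. The 2 were Ankrd37 (0.82 ± 0.34, adjusted p = 0.737) and Adm (0.46 ± 0.20, adjusted p = 0.742).

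Fasting was compared with feeding within each genotype, on other slides. The 2 comparisons have no arrays in common. In knockouts 2 of 10 genes were lower and 1 higher by limma, while 35.7% of all genes passed, 17% lower and 18.7% higher. In controls 2 were lower and 0 higher, while 36.8% passed, 16.6% lower and 20.2% higher. The members' share was no larger than that of all genes here, but the order depended on the scaling. With median centring 7 of 10 passed in knockouts, next to 53.1% of all genes, and 3 of 10 in controls, next to 52.8%. With scale normalisation 4 of 10 passed in knockouts and 5 of 10 in controls, next to 40.8% and 39.6%.

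Pdk1 was lower in fasted livers of both genotypes. Fasted knockouts gave -0.85, -1.10, -0.78 and -0.90, against -0.46, -0.56 and -0.13 in fed knockouts, a change of -0.53 ± 0.13 (SE, limma adjusted p = 0.00874). Fasted controls gave -0.84, -0.86, -0.81 and -0.79, against -0.20, 0.16 and 0.26 in fed controls, a change of -0.90 ± 0.13 (SE, adjusted p = 0.000309). The groups were separate both times, and the fasted controls were the tightest of all. The reference channel of this probe was itself 0.51 (knockouts) and 0.45 (controls) higher on fasted arrays, and with the liver channel alone the fasting changes were -0.05 ± 0.17 and -0.45 ± 0.17 (adjusted p = 0.842 and 0.0582). With median centring the knockout change was 0.08. The second Pdk1 probe changed by -0.32 ± 0.14 in knockouts and -0.42 ± 0.14 in controls.

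Egln3 was lower in fasted than in fed knockouts by 0.60 ± 0.15 (SE, limma adjusted p = 0.00787), while its change in controls was -0.38 ± 0.15 and did not pass (adjusted p = 0.0588). Its reference channel was 0.72 and 0.76 higher on the fasted arrays, and by the liver channel alone the changes were 0.12 ± 0.17 in knockouts and 0.41 ± 0.17 in controls. Adm was higher in fasted than in fed knockouts by 0.50 ± 0.14 (SE, adjusted p = 0.0167). It was well above background on no fed array, so no exact fold can be given. In controls its change was 0.04 ± 0.14, and without fed knockout 1 the knockout call was lost (adjusted p = 0.0597). By the liver channel alone Adm was 1.04 ± 0.15 higher in knockouts and 0.92 ± 0.15 higher in controls, and with scale normalisation between arrays its changes were -0.35 and -0.64.

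Slc2a1 had values of -5.04, -4.77, -4.92 and -4.63 in fasted controls, against -4.11, -4.12 and -4.50 in fed controls. It was lower by 0.60 ± 0.21 (SE, limma adjusted p = 0.0446), a call lost without fasted control 1, 2 or 3 or fed control 1 or 2 (changes of -0.53 to -0.62, adjusted p = 0.0643 to 0.134). With median centring, Feature Extraction's processed signals and the deposited ratios the change was 0.06, 0.05 and 0.05. In knockouts it was -0.08 ± 0.21. The 6 hepatocyte markers were also lower on fasted arrays, all 6 in both genotypes, but by the liver channel alone 0 were lower, with 1 higher in knockouts and 2 in controls. Their array means were 5.18 to 5.30 in fasted knockouts and 7.07 to 7.34 in fed knockouts, and 5.04 to 5.46 in fasted controls and 6.40 to 6.98 in fed controls.

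**Figure D4:**
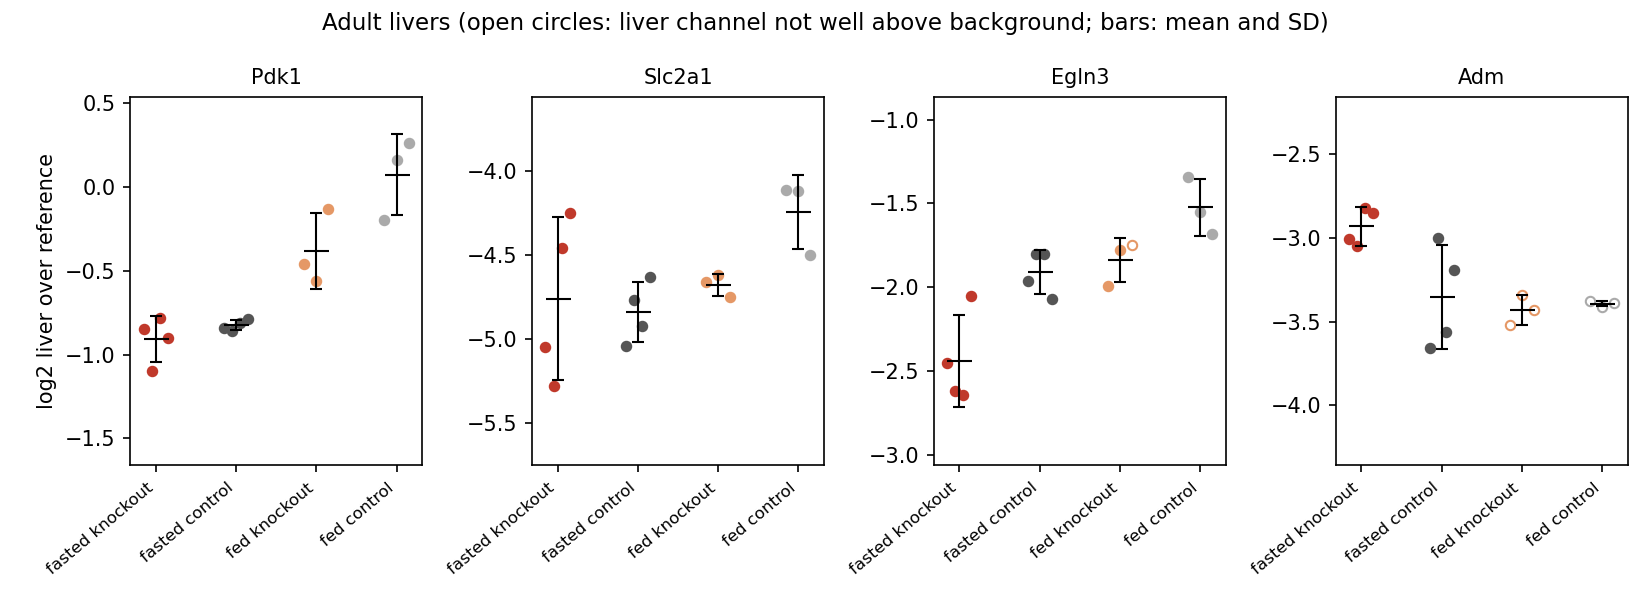
Log2 liver over reference on the 14 adult arrays for the 4 genes that passed in a fasting comparison (Pdk1, Slc2a1, Egln3 and Adm), with equal axis spans; circles are arrays, open where the liver channel was not well above background, and bars the mean and SD. Pdk1 lies between -1.10 and -0.78 on fasted arrays and between -0.56 and 0.26 on fed arrays.

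The 4 Vegfa probes did not move alike with fasting. The brightest, A_51_P482552, changed by -0.12 ± 0.13 in knockouts and 0.01 ± 0.13 in controls. With all probes fitted, A_52_P249424 was lower in knockouts by 0.65 ± 0.24 (SE, limma adjusted p = 0.0462). A_52_P229471, which was well above background on no fed array, was lower in controls by 0.66 ± 0.18 (adjusted p = 0.0113). A_52_P638895 changed by -0.56 ± 0.21 and -0.54 ± 0.21 (adjusted p = 0.0556 and 0.0629). Stc1, Stc2, Bnip3, Ndrg1 and Ankrd37 passed in neither genotype, though each passed under another setting. Bnip3 changed by 0.04 ± 0.15 in knockouts and -0.16 ± 0.15 in controls, but by the liver channel alone by 1.04 ± 0.18 and 0.96 ± 0.18, with a reference channel 0.75 and 0.94 higher.

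Stc1 was -0.28 ± 0.27 in fasted against fed knockouts and -0.56 ± 0.27 in fasted against fed controls (SE, limma adjusted p = 0.443 and 0.124). With median centring it passed as lower in both, by 0.93 ± 0.21 and 1.09 ± 0.21 (adjusted p = 0.00167 and 0.000594). In controls it passed also with processed signals (-1.49 ± 0.50, adjusted p = 0.0242) and without fed control 1 (-0.94 ± 0.22, adjusted p = 0.00769). Its probe was well above background on no fed array, so no fold can be given for any of these. Ndrg1 changed by 0.06 ± 0.25 in knockouts and -0.32 ± 0.25 in controls. With scale normalisation these were -1.14 and -1.29 (adjusted p = 0.0174 and 0.00937), and with median centring the knockout change was 0.88 (adjusted p = 0.00308). Ankrd37 changed by 0.58 ± 0.24 in knockouts (adjusted p = 0.0738) and passed there with median centring (1.05, adjusted p = 0.00278), processed signals (1.40, adjusted p = 0.0141) and array weights (0.69, adjusted p = 0.0385). Stc2 passed in controls by the liver channel alone (0.76, adjusted p = 0.00902), beside a ratio change of 0.09 ± 0.34. The Stc2 probe too was well above background on no fed array.

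Slc2a1 and Ndrg1 had higher ratios in newborn than in adult livers. Slc2a1 averaged -2.33 ± 0.21 in newborn knockouts and -2.22 ± 0.64 in newborn wild types, and -4.76, -4.84, -4.68 and -4.24 in fasted knockouts, fasted controls, fed knockouts and fed controls. Ndrg1 averaged -2.05 ± 0.30 in newborn knockouts and -2.07 ± 0.43 in newborn wild types, with adult group means between -4.87 and -4.53. No newborn value of either gene lay within the adult range. Age, feeding and slide cannot be told apart in this difference, and no test was made of it.

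The HIF pathway around these genes was described with lists of its other members. Of 8 tested genes of HIF subunits and oxygen sensing, 0 passed by limma in newborn, fasted or fed knockouts. The smallest adjusted p-values were those of Hif1an, the asparagine hydroxylase that holds HIF inactive (-0.21 ± 0.11, adjusted p = 0.444), and Hif3a (0.22 ± 0.14, 0.593) in newborns, of Hif1a (0.23 ± 0.15, 0.632) and Vhl (-0.09 ± 0.14, 0.897) in fasted adults, and of Egln2 (0.20 ± 0.11, 0.808) and Hif1an (0.19 ± 0.14, 0.965) in fed adults. At an unadjusted p under 0.05 there were 0 of 8 in each, next to 13.4%, 11.1% and 7.15% of all genes. Of all genes 1.5%, 0.477% and 0.215% passed, so 0 of 8 lies near that share.

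Of 37 tested further HIF targets, which hold the glycolytic enzymes, 0 passed in newborn, fasted or fed knockouts by limma. Over all genes 1.5%, 0.477% and 0.215% passed, so 0 of 37 lies near that share. An unadjusted p under 0.05 was found for 3, 3 and 2 targets, next to 13.4%, 11.1% and 7.15% of all genes. In newborns 1 passed as higher with processed signals and 1 with scale normalisation. Median changes were -0.02, 0.04 and 0.04. The smallest adjusted p-values belonged to Mxi1 (-0.39 ± 0.11, adjusted p = 0.114) and Hmox1 (-0.48 ± 0.17, 0.243) in newborns. In fasted livers they belonged to Hmox1, the haem-degrading oxygenase (1.07 ± 0.29, 0.166), and Ddit4 (0.85 ± 0.25, 0.206), and in fed livers to Pfkfb3 (-1.38 ± 0.44, 0.406) and Pfkfb4 (-0.29 ± 0.13, 0.692).

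Receptors for the secreted members were tested too. Of 7 receptor genes for Vegfa and adrenomedullin 0 passed by limma in the 3 knockout comparisons, with 3, 2 and 2 at an unadjusted p under 0.05. Over all genes 13.4%, 11.1% and 7.15% had such a p. In newborns 6 of 7 had changes below 0, with a median of -0.37, and 1 passed as lower with processed signals and 1 with scale normalisation. Beside them 7 of the 8 endothelial markers (Kdr is on both lists) lay below 0 in newborn knockouts, with a median of -0.47, and their part in the receptor changes was not tested. Nrp1 changed by -0.37 ± 0.11 (adjusted p = 0.139) and Kdr, the main VEGF receptor of endothelium, by -0.98 ± 0.29 (0.141). Ramp2, which pairs with the adrenomedullin receptor, changed by 0.40 ± 0.12 in fasted (0.225) and 0.38 ± 0.14 in fed (0.567) knockouts, and Nrp1 by -0.71 ± 0.26 in fasted knockouts (0.327). Of 12 tested relatives of the members (other Vegf, Ndrg, Pdk and Slc2a genes among them) 0 passed, with 1 at an unadjusted p under 0.05 in each comparison and smallest adjusted p of 0.311 for Vegfc, 0.443 for Ndrg3 and 0.686 for Vegfb. With processed signals 1 relative passed as lower in newborns.

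With fasting the same lists held calls in both directions, and most of them depended on the scaling. Of the 64 list genes 27 passed in both genotypes by limma, and 2 of these, Hk2 and Kdr, passed with one direction under all 5 scalings in both. The share of all genes that did so was not computed, so these counts are a description. In the single comparisons 35.7% of all genes passed in knockouts and 36.8% in controls. Hk2, a hexokinase that traps glucose in the cell, was higher in fasted than in fed livers by 1.19 ± 0.10 in knockouts and 1.11 ± 0.10 in controls (SE, adjusted p = 4.37e-06 and 8.43e-06). Kdr was higher by 1.72 ± 0.18 and 2.39 ± 0.18 (adjusted p = 3.16e-05 and 4.32e-06). It is also one of the 8 endothelial markers, of which 4 were higher and 2 lower in knockouts and 5 higher and 0 lower in controls.

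Of the 37 targets 10 were higher and 13 lower in fasted than in fed knockouts, and 9 higher and 11 lower in controls. Of all genes 18.7% were higher and 17% lower in knockouts, and 20.2% and 16.6% in controls. By the liver channel alone 13 were higher and 2 lower in knockouts, and 11 higher and 4 lower in controls. Of all 17188 genes 3276 were higher and 1887 lower there in knockouts, and 4058 and 2538 in controls. With median centring the knockout counts were 23 and 6, next to 7057 and 2071 of all genes. With scale normalisation they were 5 and 15, next to 3772 and 3234, so neither direction held across scalings. The glycolytic genes Eno1 (-1.68 ± 0.17 in knockouts and -1.83 ± 0.17 in controls), Pgk1 (-0.73 ± 0.09 and -0.72 ± 0.09) and Gapdh (-1.23 ± 0.14 and -1.23 ± 0.15) were lower, as was Lox, a collagen cross-linking enzyme (-1.26 ± 0.19 and -1.59 ± 0.19). By the liver channel alone Eno1 changed by 0.38 and 0.53 and Lox by 0.97 and 0.76, and with median centring Pgk1 changed by 0.34 and 0.19.

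Hif1a, the oxygen-regulated HIF-1 subunit, was lower on fasted arrays by 1.03 ± 0.16 in knockouts and 1.16 ± 0.16 in controls (SE, limma adjusted p = 0.000477 and 0.000219). By the liver channel alone it changed by 0.27 and -0.14 and did not pass. Hif3a was higher by 0.54 ± 0.11 and 0.45 ± 0.11, against -0.25 and -0.75 by the liver channel alone, and Egln1 was lower by 0.43 ± 0.15 and 0.50 ± 0.15, against 0.63 and 0.54. Vhl was lower in knockouts by 0.57 ± 0.16, and Egln2 was higher in controls by 0.28 ± 0.10, and both calls were lost by the liver channel alone.

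Among the receptors Flt1 was higher (1.02 ± 0.20 and 0.90 ± 0.20) and Ramp3 lower (-0.71 ± 0.21 and -0.88 ± 0.21). By the liver channel alone Flt1 changed by -0.02 and 0.04, and with processed signals Ramp3 changed by 0.43 and -0.12. Among the relatives Ndrg2 (-0.69 ± 0.12 and -0.64 ± 0.12), Pdk3 (-0.59 ± 0.15 in both) and Ndrg4 (-0.51 ± 0.16 and -0.58 ± 0.16) were lower in both genotypes and Vegfb was higher in knockouts (1.1 ± 0.21). By the liver channel alone these were 0.08 and 0.29, 0.62 and 0.78, and 0.57 and 0.64, and -0.64 for Vegfb.

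The genes whose 6 group means ran most like those of Stc1 were found over 15296 genes tested at both ages, each centred on its own mean. The closest were Olfr176, an odorant receptor gene, at a root mean square difference of 0.308, then Cidea (0.453), which encodes a lipid droplet protein, Tmem252 (0.493), Fibin (0.563) and Hmgn2 (0.568), a nucleosome-binding protein. Olfr176 averaged 5.67 ± 0.28 in newborn knockouts and 2.77 ± 0.67 in newborn wild types (SD, n = 4 each), with adult means from 1.20 to 2.07. Cidea averaged 5.16 ± 0.51 in newborn knockouts and 3.58 ± 0.78 in newborn wild types, and its ranges overlapped. The other members came nowhere near the top: the closest were Ndrg1 at rank 173 and Slc2a1 at rank 222, followed by Stc2 at rank 2241. The newborn changes of Cidea, Tmem252, Fibin and Hmgn2 were 1.58, 1.35, 0.73 and 0.70, and that of Olfr176 was 2.90. They are given with no test, since the newborn means helped to choose these genes. This likeness is a description over 6 group means that lie on different slides.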

How the data were processed

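Per the file headers, Agilent Feature Extraction 10.5.1.1 quantified the scans with probe positions on mm9, while the submitters' processing notes name 8.5.1.1. The deposited array files hold intensity values per spot, namely median brightness and local background without normalization and processed signals that are background-subtracted and dye-normalized. They and the value table the authors deposited hold log10 ratios of reference over liver, and the largest difference between both sources was 0.

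From the median signals, normexp (offset 50) and loess gave log2 of liver over reference with the sign turned. Local backgrounds marked as outliers were replaced by the array median, spots flagged as non-uniform or as outliers were set to missing, and spots of a probe were averaged. A RefSeq table of GRCm38.p6 named 32831 probes, and 8343 kept the file's name. A gene was represented by its brightest probe, kept for testing if 4 or more newborn arrays (3 or more adult arrays) had its liver channel well above background. limma 3.58.1 in R 4.3.3 (two-sided, Benjamini-Hochberg over all genes, threshold 0.05) was fitted to 8 newborn arrays (17175 genes with a test, of 17176 past the filter, 6 residual degrees of freedom) and 14 adult arrays (17188 genes, 10). Fits were tested on simulated data. Files were read with the data.table package, version 1.17.8. Python 3.11.15 with NumPy 2.4.6 and matplotlib 3.10.9 drew the figures.

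All 10 members with each of their probes were named, with Tcf7l2, the 5 genes most like Stc1, and from each pathway list up to 4 genes that passed or else the 2 with the smallest adjusted p. The members, lists and background step were chosen with earlier results of these data known. P-values measure the spread between arrays of a group, and the number of arrays limits the precision. The scalings of the pathway lists were added after seeing the data.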

Additional observations from a re-analysis of the deposited data

Results flagged for a closer look

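In 2 of 40 groups checked 1 array stood far from the others of its group, by the gap to its neighbour over the group's range. Chance gives about 1 in 20 such groups. Stc2 was -1.20 in fasted knockout 1, beside -2.70 to -2.54 in the other fasted knockouts, and the liver channel was not well above background on that array. The reference signal of Stc2 was also low there, at 9.32 beside 10.96 to 11.12 in the other fasted knockouts (log2). Vegfa was -0.36 in fasted control 2, beside -0.15 to -0.12 in the other fasted controls. Neither gene passed in fasted knockouts with or without these arrays.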

How the results depend on the processing

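Of 591 knockout changes recomputed for single members under the alternatives and with each array left out, 587 stayed on their side of the threshold and 4 newly passed (Stc2 in newborns 3 times, Egln3 in fasted adults once). The count of the 9 newborn genes that passed was 1 in place of 0 with scale normalisation and with array weights, and 0 to 1 with an array left out. In fasted knockouts it was 0 to 1 with an array left out. In fasted against fed controls it was 1 with outlier backgrounds kept, 5 with scale normalisation and 1 with array weights, in place of 2, and 1 to 2 with an array left out. In fasted against fed knockouts it was 7 with median centring, in place of 3, and 2 to 3 with an array left out. The Stc1 rise was 2.25 with the liver channel alone and 2.48 to 2.81 with an array left out, and with outlier backgrounds kept it was 2.29 ± 0.67 (SE). Sample number as a replicate block left every one of these counts as it was (0, 0, 0, 2, 3 and 0 for the interaction) and Stc1 at 2.63. It gave 356 newborn genes in all in place of 257. Same-numbered newborn arrays deviated from their group means with correlations of 0.50, 0.35, 0.39 and -0.23, while in adults such correlations lay between -0.13 and 0.16. The labels give no pairing beyond the number, so the main fit did not block on it. What same-numbered newborn arrays share was not tested. Reversed fasting changes were those of Adm with scale normalisation (-0.35 in knockouts, -0.64 in controls), Ndrg1 with it in knockouts (-1.14), Bnip3 in controls (0.79 with median centring, 0.96 with the liver channel alone), Egln3 in knockouts with the liver channel alone (0.12), and Pdk1 (0.08), Slc2a1 (0.68) and Vegfa (0.57) in knockouts with median centring. Slc2a1 in controls was 0.06 with median centring, and 0.05 with processed signals and with deposited ratios. The cause was not tested. Median centring moved the median fasting change of all genes to 0.30 in knockouts and 0.26 in controls, processed signals to 0.41 in each, beside 0.04 and 0.05, and with processed signals the fasting calls split into 7179 higher and 1887 lower in knockouts (beside 3213 and 2925) and 7383 and 1712 in controls (beside 3466 and 2861). Newborn calls split into 269 higher and 321 lower with scale normalisation, beside 198 and 59, and fasted knockout calls into 120 and 29 with outlier backgrounds kept, beside 19 and 63. Genes that passed in all numbered 257 in newborns and 0 with outlier backgrounds kept, 110 with median centring, 1059 with the liver channel alone, and 66 to 433 with an array left out. In fasted knockouts they numbered 82 and 27 to 380 under the alternatives, in fed knockouts 37 and 11 to 94 (30 to 99 with an array left out), and for fasting 6138 and 3336 to 9128 in knockouts and 6327 and 3838 to 9527 in controls. For the interaction they numbered 0 and 0 to 11 (0 to 12 with an array left out). Low signal limits the fed comparisons most.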
